A study of Mus musculus with 36 samples.

Results

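Neurotransmitter release is carried out by a small set of protein families, and the genes that encode them were followed here in 3 regions of the mouse brain. Synaptic vesicles are filled with transmitter, docked at the active zone by scaffold proteins (Rims) and made ready for fusion by priming factors (Unc13). Fusion is driven by SNARE proteins on the vesicle (Vamp) and on the plasma membrane (Stx1, Snap25), which assemble with the help of syntaxin-binding proteins (Stxbp) and complexins (Cplx). Synaptotagmins (Syt) include the sensors of the calcium that triggers release, while synapsins (Syn), synaptophysin (Syp) and the Sv2 proteins sit on the vesicle itself.

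The genes were taken by name, as every probe whose symbol is a member of the Syt, Syn, Stx, Stxbp, Vamp, Cplx, Snap, Syp, Sv2, Rims or Unc13 series. The rule found 136 probes of 75 gene symbols, of 45281 probes on the array. It used no measured value. It also took in 6 symbols with no role in release, namely Snapc1 to Snapc5, which encode subunits of a complex that activates small nuclear RNA genes, and Sync, which encodes an intermediate filament protein. Several syntaxins (Stx5a, Stx6, Stx7, Stx8 and others) act within the cell rather than at the synapse, and Snap91 encodes a clathrin adaptor of vesicle recycling.

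The study asked how inhibitors of histone deacetylases, enzymes that remove acetyl groups from histones, alter gene expression in brain. Male C57BL/6J mice, 11 wk old by the study's methods, received 10 daily i.p. injections of vehicle (saline with PEG-400 and DMSO), Cpd-60 at 45 mg/kg, SAHA at 25 mg/kg or CI-994 at 10 mg/kg, and tissue was taken 1 h after the last. RNA of 3 regions was analysed, the hippocampus (HIP), the prefrontal cortex (PFC) and the nucleus accumbens (NAc). It was pooled from 2 mice per array, with 3 pools per treatment, so that each of 12 groups had 3 Illumina MouseWG-6 arrays and the 3 regions of a pool came from the same animals. The description of 1 pool, Cpd-60 pool 2, names other mice than its title, and the title was used. Tissue pieces mix many cell types, so that fewer cells of a type and less RNA per cell cannot be told apart in any value below.

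The 36 arrays had median raw intensities of 82.2 to 108.3 and 95th percentiles of 349.9 to 1079.7, none held identical values, and same-group arrays correlated at 0.970 to 0.994 across probes. In HIP, SAHA pools 2 and 3 were the dimmest, with 95th percentiles of 437.7 and 452 against 593.6 to 850.1 on the other HIP arrays. The tissue labels fitted the mean levels of their marker lists under vehicle. The mean level of 9 striatal genes was 10.29 to 10.59 log2 units in NAc, against 7.46 to 7.61 in PFC and 7.14 to 7.24 in HIP, and that of 7 hippocampal genes was 8.58 to 8.86 in HIP and at most 7.47 elsewhere. The cortical list of 6 genes was highest in PFC at 8.01 to 8.23. Some single genes went other ways. Of the hippocampal list, Wfs1 was highest in NAc (8.65, 10.32 and 8.53 in PFC, NAc and HIP), as was Tdo2, near background. Of the cortical list, Neurod6 and Rasgrf2, both near background, were highest in HIP. The other genes of the 3 lists were highest in their own region. Each region was run on its own 2 BeadChips, the glass slides that carry the arrays, so region and BeadChip cannot be told apart.

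Of the 75 symbols, 61 had a probe present in at least 1 region, where present means a detection p-value, the chance of such an intensity from background, of at most 0.2 on all 3 arrays of a group. In all 36 arrays, 64 probes of 44 symbols were detected. The other 14 symbols could not be followed. A probe at background does not show that the gene was silent. The probes of Snap25, a SNARE present in nearly every neuron, were detected on at most 17 of 36 arrays, and those of Syt2 and Cplx3 on at most 10 and 13. Levels are log2 intensities after quantile normalization, each probe has its own scale, and levels are compared only within a probe.

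Promoter sequences are shown for Stx1a and Unc13c, which differed most between regions, and for Syn1, whose promoter holds both the cyclic AMP and the RE1 motif. Each is the 250 bases before the start listed by RefSeq (GRCm38.p6), 5′ to 3′ on the gene's strand. Capitals mark, on either strand, the GC box CCCGCCC, the cyclic AMP response element TGACGTCA and the left part of the RE1 element, TTCAGCACC, which is known as a binding site of the repressor REST. None of these matches overlap. TATAAA was searched as well and is in none of the 3 windows.

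Stx1a, chr5:135023232-135023481, plus strand: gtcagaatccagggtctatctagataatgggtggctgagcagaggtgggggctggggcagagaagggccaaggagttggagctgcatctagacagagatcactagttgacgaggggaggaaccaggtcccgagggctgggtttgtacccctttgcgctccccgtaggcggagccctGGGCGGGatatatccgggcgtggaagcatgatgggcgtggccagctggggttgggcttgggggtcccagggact

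Unc13c, chr9:73969038-73969287, minus strand: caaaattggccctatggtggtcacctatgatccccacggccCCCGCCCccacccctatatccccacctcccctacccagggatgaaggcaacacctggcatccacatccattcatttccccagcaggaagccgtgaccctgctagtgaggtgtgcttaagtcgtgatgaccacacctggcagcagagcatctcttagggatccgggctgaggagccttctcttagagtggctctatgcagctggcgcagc

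Syn1, chrX:20920919-20921168, minus strand: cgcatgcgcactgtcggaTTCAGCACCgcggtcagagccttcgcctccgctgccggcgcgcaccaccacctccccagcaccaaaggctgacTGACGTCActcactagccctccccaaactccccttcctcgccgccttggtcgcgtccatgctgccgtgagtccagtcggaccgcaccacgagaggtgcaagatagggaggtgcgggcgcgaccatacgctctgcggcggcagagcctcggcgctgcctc

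RefSeq promoters were found for 57 of the 75 symbols, in 72 windows. The GC box was held by 47.2% of these windows and by 23.4% of all 32851 windows. The cyclic AMP element was in 3 of the 72 windows, those of Snapc5, Stxbp3 and Syn1, and in 1.55% of all. The RE1 part was in the window of Syn1 alone among these genes, and in 0.301% of all. TATAAA was held by 5.56% of the 72 windows and by 12.4% of all.

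Under vehicle, release genes differed widely between regions. The limma F test over the 3 regions passed an adjusted p of 0.05 for 43 of 94 member probes tested (45.7%), against 33.2% of all 22606 probes tested, and counted by gene, with the brightest probe of each, for 29 of 57. PFC held the highest level for 25 of these 43 probes, NAc for 12 and HIP for 6. Among all called probes on the array, 36.8% were highest in PFC, 28.3% in NAc and 34.9% in HIP. A difference of at least 1 log2 unit between the highest and lowest region was reached by 6 called genes, Stx1a, Unc13b, Unc13c and Rims3 of the plasma membrane and active zone and Sv2b and Syn1 of the vesicle. p-values here measure the spread among 3 pools per group, and with so few arrays every estimate is of limited precision.

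**Figure D1:**
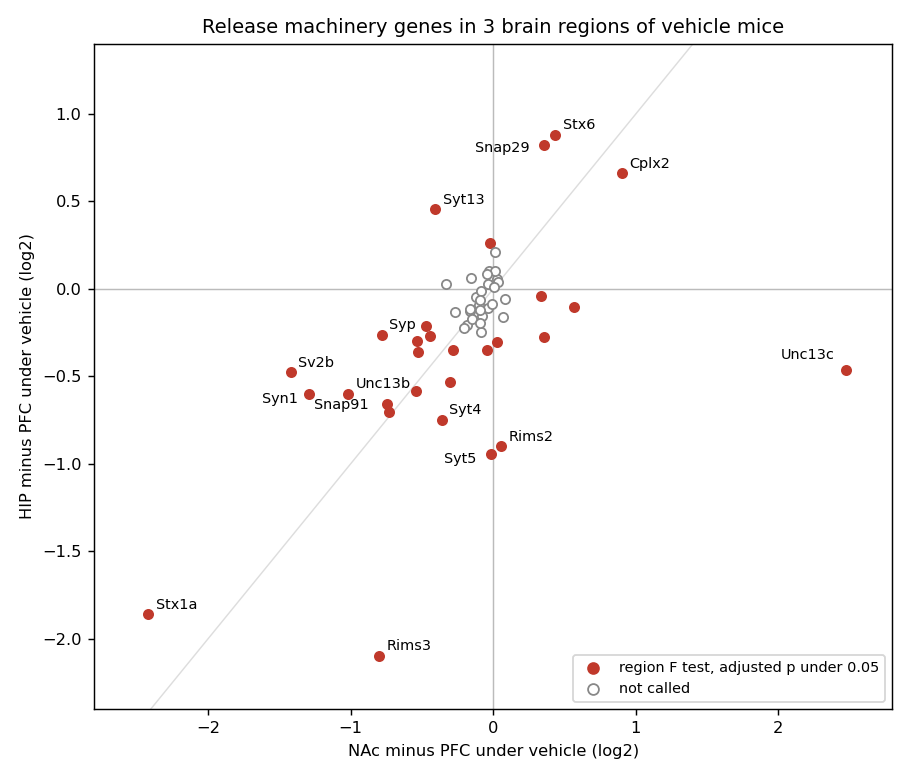
Difference of each of 57 genes from PFC under vehicle, in NAc (horizontal axis, log2) and in HIP (vertical axis, log2), 1 point per gene, with the grey diagonal marking equal differences. Filled points are the 29 genes that passed the region F test. Stx1a lies far to the lower left, Unc13c far to the right and Rims3 far below.

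HIP against PFC was called for 29 of 94 probes (24.9% of all probes tested), 8 higher and 21 lower in HIP. Without vehicle pool 1 it was called for 17 of 101 (2455 of 25139 over all probes). Without vehicle pool 2 it was called for 16 of 101 (2218 of 24993). NAc against PFC was called for 29 (18.4% of all), 7 higher and 22 lower in NAc. HIP against NAc was called for 19 (16.1% of all), 6 higher and 13 lower in HIP. The median difference of the member probes was −0.11 in HIP against PFC, beside −0.03 for all probes, −0.07 in NAc against PFC, beside 0.00, and 0.02 in HIP against NAc, beside 0.00. Markers of glia also moved with region. The mean of 6 oligodendrocyte genes, all detected on 36 arrays, was 9.86 to 10.21 in PFC, 10.75 to 11.13 in NAc and 11.47 to 11.71 in HIP, and that of 6 astrocyte genes was 9.88 to 9.99, 9.31 to 9.53 and 10.19 to 10.33. Neither list overlapped between regions, and their part in these counts was not tested. The astrocyte genes did not move alike. Gfap (9.23, 7.64 and 10.58 in PFC, NAc and HIP), Aqp4 and Gjb6 were highest in HIP and lowest in NAc. Slc1a3 (12.33, 12.29 and 12.13) and Aldh1l1 (8.04, 7.59 and 7.59) were highest in PFC, and Gja1 (11.01, 11.16 and 11.53) was lowest there. The mean of the 4 neuronal genes on the array lay between 8.45 and 8.58 in all 3 regions, with Nefl and Tubb3 near background. Eno2 and Nefm moved in opposite ways, which the even mean hides. Eno2 was at 12.41, 12.60 and 12.03 in PFC, NAc and HIP, and Nefm at 8.51, 8.26 and 9.16. Choroid plexus genes, led by Ttr, were at 7.56 to 8.35 in HIP and at most 7.11 elsewhere.

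Stx1a, the plasma membrane syntaxin that forms the fusion complex, showed the steepest fall from PFC. Its levels were 11.70, 11.87 and 11.88 in the PFC pools, 9.54, 9.54 and 9.11 in NAc and 9.59, 10.13 and 10.14 in HIP. The regions did not overlap and all 3 contrasts passed. PFC was 5.35-fold above NAc (log2 difference −2.42, SE 0.16, limma, Benjamini-Hochberg adjusted p = 5.39e-12) and 3.63-fold above HIP (−1.86, SE 0.16, adjusted p = 2.75e-09), and HIP was above NAc by 0.56 (SE 0.16, adjusted p = 0.0178). The single Stx1a probe leaves no second reading. Of the other plasma membrane SNAREs, Stx4a was called, with PFC highest (8.58, SD 0.07) over NAc (8.30, SD 0.10) and HIP (8.23, SD 0.08). Snap23, Stx2 and Stx3 were not.

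Unc13c, a priming factor of the Munc13 family, was highest in NAc. Its levels were 8.37, 8.25 and 8.14 in PFC, 10.43, 10.45 and 11.28 in NAc and 7.94, 7.95 and 7.46 in HIP. NAc was 5.55-fold above PFC (2.47, SE 0.24, adjusted p = 7.54e-09) and 7.66-fold above HIP (HIP minus NAc −2.94, SE 0.24, adjusted p = 2.73e-10). Both other Unc13c probes passed in the same direction, at 1.71 (SE 0.14) and 0.74 (SE 0.09) for NAc minus PFC. Its relative Unc13b ran the other way, at 8.63 (SD 0.06) in PFC, 7.61 (SD 0.30) in NAc and 8.03 (SD 0.14) in HIP (NAc minus PFC −1.02, SE 0.16, adjusted p = 1.53e-05). Unc13a was near background and not called.

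The Rims genes were not uniform. Rims3 stepped down from PFC (10.36, 10.50 and 10.71) to NAc (10.05, 9.74 and 9.38) to HIP (8.31, 8.36 and 8.62). The pools of the 3 regions did not overlap, and all 3 contrasts passed, the widest being 4.27-fold between PFC and HIP (HIP minus PFC −2.10, SE 0.23, adjusted p = 1.62e-07). Rims2 was lowest in HIP, at 8.16, 8.11 and 7.87 against 8.79 to 9.10 in PFC and 8.87 to 9.13 in NAc (HIP minus NAc −0.96, SE 0.17, adjusted p = 0.00018). Rims1 was higher in PFC than in NAc (NAc minus PFC −0.53, SE 0.10, adjusted p = 0.000354) and HIP (HIP minus PFC −0.30, SE 0.10, adjusted p = 0.0363), while HIP minus NAc did not pass (0.24, adjusted p = 0.127). Rims4 was not called.

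Among proteins of the vesicle, Sv2b, a membrane glycoprotein, was lowest in NAc. Its levels were 11.41, 11.29 and 11.61 in PFC, 10.00, 10.07 and 9.99 in NAc and 10.93, 11.03 and 10.93 in HIP. PFC exceeded NAc 2.67-fold (NAc minus PFC −1.42, SE 0.16, adjusted p = 1.23e-07), and HIP lay between. The family was not uniform. Sv2c was higher in NAc than in PFC (0.34, SE 0.07, adjusted p = 0.0016) at levels near background. The Sv2c probe was present in NAc alone and entered the test through that region, so the filter favoured this direction. Sv2a was not called, with 95% intervals of −0.46 to 0.27 for NAc minus PFC and −0.56 to 0.17 for HIP minus PFC.

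Syn1, a synapsin that clusters vesicles, was also lower in NAc than in PFC. Its levels were 12.44, 12.47 and 11.77 in PFC, 10.86, 10.996 and 10.95 in NAc and 11.94, 11.64 and 11.31 in HIP (NAc minus PFC −1.29, SE 0.27, adjusted p = 0.000715), and HIP minus NAc did not pass (0.69, SE 0.27, adjusted p = 0.078). The second Syn1 probe passed in the same direction at −0.81 (SE 0.24, adjusted p = 0.0148), yet the pools deviated in opposite ways, with PFC pool 3 lowest on the first probe and highest on the second (10.54, 10.62 and 10.96). Syn2 (NAc minus PFC −0.47, SE 0.13, adjusted p = 0.0101) and Syp, the common marker of synaptic vesicles (−0.78, SE 0.13, adjusted p = 4.35e-05), were lower in NAc too. The Syn2 contrast was −0.33 (adjusted p = 0.207) without vehicle pool 3. Syn3 was near background and not called.

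Synaptotagmins split by region. Syt1, the sensor of fast release, was highest in PFC, at 13.21 to 13.30 against 12.45 to 12.85 in NAc and 12.60 to 12.81 in HIP (HIP minus PFC −0.58, SE 0.13, adjusted p = 0.00199), and all 3 of its probes passed the F test. Syt4 stepped down from PFC (11.43, SD 0.14) to NAc (11.07, SD 0.02) to HIP (10.68, SD 0.08). Syt5 was lowest in HIP (HIP minus PFC −0.94, SE 0.17, adjusted p = 0.000161). Syt13 was highest there, at 7.68, 7.52 and 7.78 in HIP against 7.15, 7.18 and 7.29 in PFC and 6.75, 6.83 and 6.82 in NAc (HIP minus NAc 0.86, SE 0.10, adjusted p = 1.48e-07). Syt6 was near background outside NAc, where it was higher (NAc minus PFC 0.57, SE 0.09, adjusted p = 1.26e-05). Its probe was present in NAc alone and entered the test through that region, so the filter favoured this direction.

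**Figure D2:**
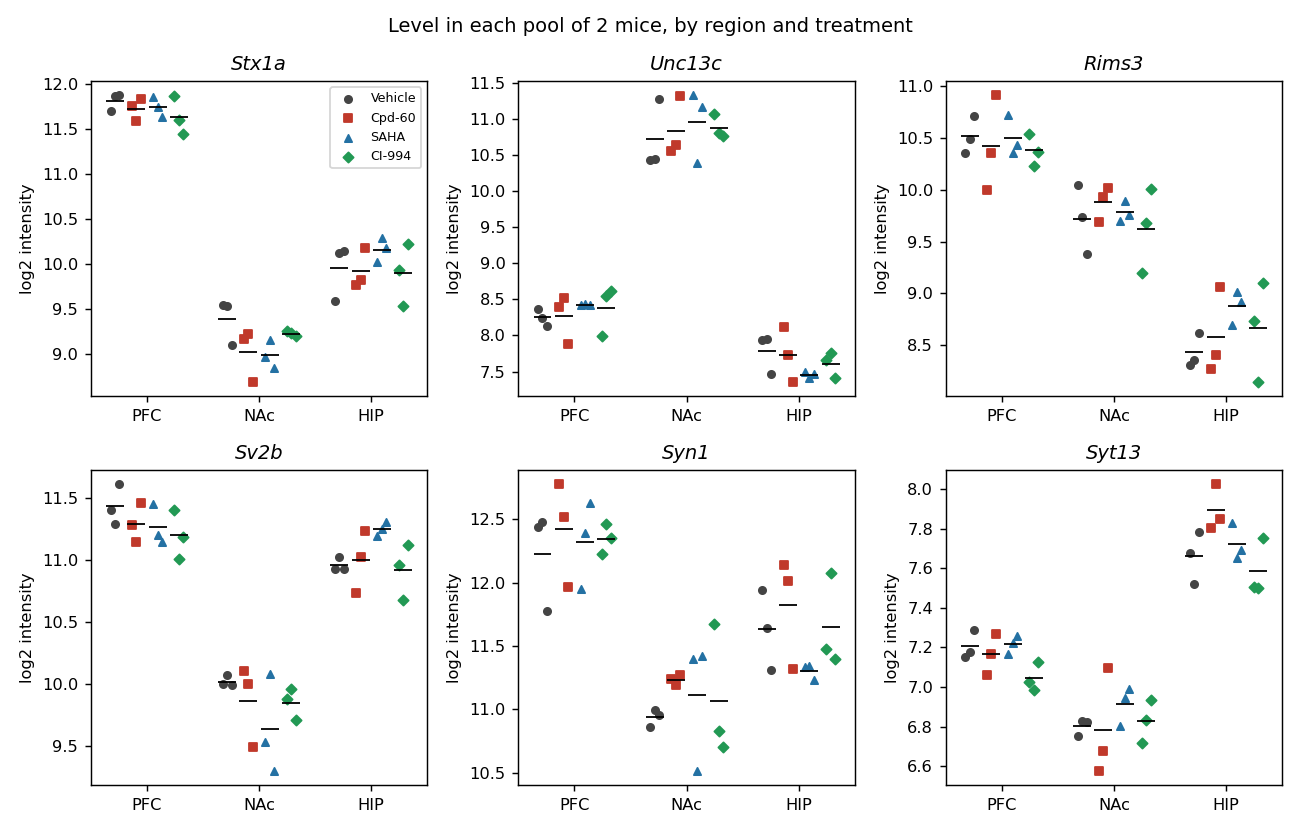
Level (log2 intensity) of 6 genes in every pool of 2 mice, by region on the horizontal axis and treatment by colour and shape, with a bar at each group mean of 3 pools. Stx1a and Rims3 are highest in PFC, Unc13c in NAc and Syt13 in HIP, in the vehicle group and in each drug group.

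Complexins and the SNAREs of vesicles followed other patterns. Cplx2, a regulator of the fusion complex, was lowest in PFC, at 10.44, 9.97 and 10.50 against 11.14, 11.14 and 11.35 in NAc (0.91, SE 0.22, adjusted p = 0.00391). Without vehicle pool 2 that contrast was 0.78 with an adjusted p of 0.0824. Cplx1 was not called, with a 95% interval of −0.55 to 0.14 for NAc minus PFC. Vamp2, the main vesicle SNARE, was not called either, but its interval for NAc minus PFC, −0.80 to 0.72, was wide. Vamp1 and Vamp3 were not called. Vamp8, a SNARE of endosomes and secretory granules, was highest in HIP (HIP minus PFC 0.26, SE 0.07, adjusted p = 0.00772; HIP minus NAc 0.29, SE 0.07, adjusted p = 0.00461), though its second probe was not called. Vamp4, a SNARE of the Golgi and endosomes, had no settled direction, since HIP minus PFC was −0.31 (SE 0.09, adjusted p = 0.0152) on the brighter probe and 0.37 (SE 0.12, adjusted p = 0.0281) on the other. Snap29 and Stx6, SNAREs of internal membranes, were higher in HIP than in PFC (0.82, SE 0.17, adjusted p = 0.000635, and 0.88, SE 0.18, adjusted p = 0.000669), while HIP minus NAc did not pass (adjusted p = 0.052 and 0.0926).

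These differences held in animals treated with drug, which share no mice with the vehicle pools. For each of Cpd-60, SAHA and CI-994, the sign of the regional difference in the treated pools matched that under vehicle for 29 of 29 probes called in HIP against PFC, for 29 of 29 in NAc against PFC and for 19 of 19 in HIP against NAc. The median size was also close. For NAc against PFC it was 0.63 under vehicle and 0.59, 0.67 and 0.66 under Cpd-60, SAHA and CI-994. The drug arrays lay on the same BeadChips as the vehicle arrays of their region. The probes were chosen for a called difference under vehicle, and the matching share over all called probes was not counted. The match is therefore not shown to be particular to release genes.

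A further list of 63 release and recycling genes outside the name rule was read beside the members, and 52 of its genes were tested. It held 32 called genes in the region F test (33.2% of all probes), with 22 lower and 5 higher in NAc than in PFC (18.4% of all), and 11 lower and 6 higher in HIP than in PFC (24.9% of all). Slc32a1, the vesicular transporter of inhibitory transmitters, was 12.01 (SD 0.06) in NAc and 10.25 (SD 0.09) in PFC (1.76, SE 0.12, adjusted p = 8.68e-12). Slc17a7, a vesicular glutamate transporter, was 8.02 (SD 0.33) in NAc and 11.44 (SD 0.29) in PFC (−3.41, SE 0.37, adjusted p = 5.32e-08). Doc2a, a calcium sensor, was highest in PFC (HIP minus PFC −1.23, SE 0.12, adjusted p = 1.79e-08).

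The drugs were each compared with vehicle within a region. No member probe passed an adjusted p of 0.05 in any of the 9 comparisons (limma, 90 to 93 member probes tested in each), and neither did any probe on the array, so that 0% was called in each. Over the 9 comparisons, 30 of 819 member tests had an unadjusted p under 0.05 (3.66%), against 4.24% of all 206019 tests, and these were spread over 24 probes of 20 symbols. The members' median 95% interval reached 0.20 to 0.24 log2 units on either side of the estimate, depending on the region. Doses differed between drugs, and all 3 drugs share the vehicle arrays of a region, so drugs are given side by side and not compared.

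**Figure D3:**
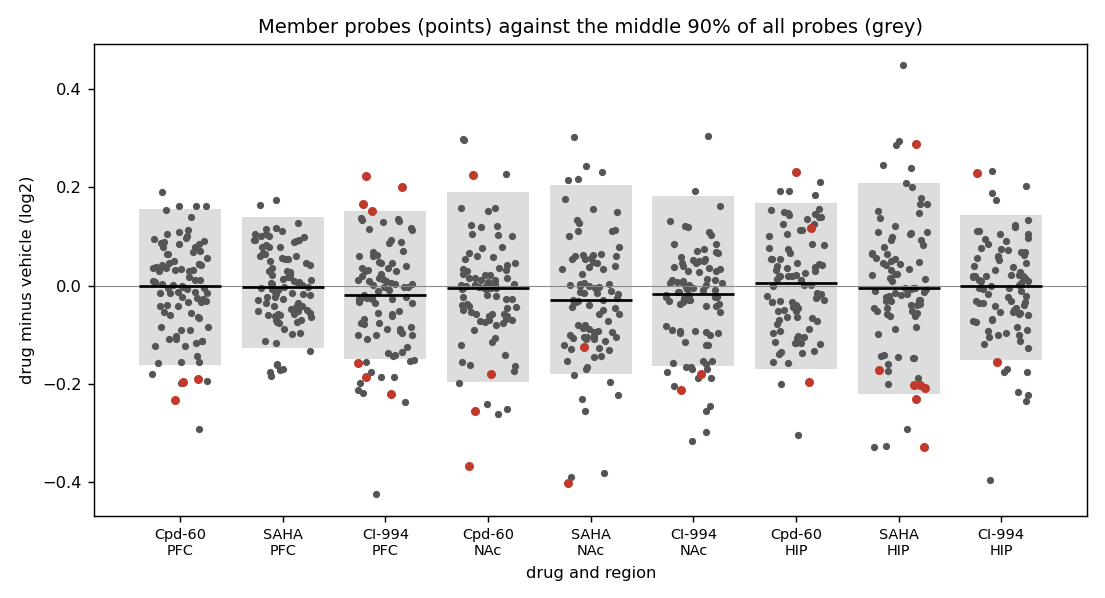
Drug minus vehicle (log2) of each member probe (points, 90 to 93 per column) for 9 drug and region pairs, with those at an unadjusted p under 0.05 in red, a black bar at the members' median and grey bars for the middle 90% of all probes tested. The medians lie between −0.03 and 0.01.

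For Cpd-60, 3 members in PFC (5.19% of all probes), 4 in NAc (4.77%) and 3 in HIP (5.26%) had an unadjusted p under 0.05. For SAHA the counts were 0 in PFC (2.25%), 2 in NAc (2.05%) and 7 in HIP (9.37%). For CI-994 they were 7 in PFC (3.98%), 2 in NAc (1.99%) and 2 in HIP (3.24%). All 9 counts moved by over 1.5 times when 1 pool was left out. For SAHA in HIP the count was 3 without SAHA pool 3 and 13 without CI-994 pool 3, and the other 8 counts ranged from 0 to 11. Member medians ran from −0.03 (SAHA in NAc) to 0.01 (Cpd-60 in HIP), beside medians of all probes within 0.01 of 0. In the SAHA HIP comparison, 2 of the 3 drug arrays were the dim ones, blood, astrocyte and cortical genes were lower than under vehicle by 0.31, 0.09 and 0.08 with no overlap of the groups, and the part of any of these was not tested.

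Snap23, a plasma membrane SNARE found widely outside neurons, had the smallest p of the members. Under Cpd-60 in PFC its levels were 7.22, 7.24 and 7.21, against 7.46, 7.43 and 7.46 under vehicle. The groups did not overlap (−0.23, SE 0.07, 95% interval −0.37 to −0.09, unadjusted p = 0.0038, limma adjusted p = 0.775). Within each of the 2 BeadChips the difference was −0.22 and −0.26, with a single array of each group on the second. In these arrays astrocyte genes were higher by 0.15 and microglial genes lower by 0.09, both with no overlap, and their part was not tested.

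Stx1a had an unadjusted p under 0.05 for both Cpd-60 and SAHA in NAc. Its levels were 9.54, 9.54 and 9.11 under vehicle, 9.17, 9.22 and 8.69 under Cpd-60, 8.97, 9.16 and 8.84 under SAHA and 9.25, 9.24 and 9.20 under CI-994. The estimates were −0.37 (SE 0.15, unadjusted p = 0.0375, adjusted p = 0.999), −0.40 (SE 0.15, unadjusted p = 0.0249, adjusted p = 1) and −0.17 (SE 0.15, unadjusted p = 0.307, adjusted p = 1). Vehicle pool 3 lay within the Cpd-60 and SAHA ranges. The Cpd-60 difference was −0.34 on 1 BeadChip and −0.41 on the other, where each group had a single array. That of SAHA was −0.57 and −0.11, with a single SAHA array on the first and a single vehicle array on the second. Leaving out 1 pool gave −0.51 (without vehicle pool 3) to −0.20 (without Cpd-60 pool 3) for Cpd-60, and −0.55 to −0.33 for SAHA. Choroid plexus genes were higher than under vehicle by 0.28 under Cpd-60 and by 0.21 under SAHA, without overlap. Under SAHA, astrocyte genes were higher by 0.32, cortical genes lower by 0.12 and blood genes lower by 0.45, also without overlap. Under Cpd-60, astrocyte genes were higher by 0.31 and blood genes lower by 0.40, with overlap of the groups. The part of these lists was not tested.

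Other members with the smallest p were spread over families. Syt12 in PFC was 7.39 to 7.50 under vehicle, 7.23 to 7.31 under Cpd-60 (−0.19, SE 0.07, adjusted p = 0.923) and 7.22 to 7.32 under CI-994 (−0.19, SE 0.07, adjusted p = 1). Sv2a in HIP was 11.20 to 11.36 under vehicle and 10.77 to 11.18 under SAHA (−0.33, SE 0.12, adjusted p = 0.515), with the dim pools 2 and 3 lowest. Within the first and second BeadChip the Sv2a difference was −0.12 and −0.39. Stx4a in HIP was 8.14 to 8.29 under vehicle and 7.93 to 8.08 under SAHA (−0.20, SE 0.08, adjusted p = 0.515). Syt13 in HIP was 7.52 to 7.78 under vehicle and 7.80 to 8.03 under Cpd-60 (0.23, SE 0.09, adjusted p = 0.925). In these arrays astrocyte genes were higher by 0.21, and endothelial and neuronal genes were lower (−0.10 and −0.04). Each of these lists differed from vehicle with no overlap, and their part was not tested. Syt4, a synaptotagmin linked to activity, was 11.05 to 11.09 in the NAc under vehicle and 10.68 to 10.89 under Cpd-60 (−0.25, SE 0.11, adjusted p = 0.999). Probes of 1 gene did not always move alike. A dimmer Syt1 probe was 9.08 to 9.14 in HIP under vehicle and 8.794 to 9.002 under SAHA (−0.21, SE 0.06, unadjusted p = 0.00712, limma adjusted p = 0.502), while the brightest Syt1 probe had an estimate of 0.17 (unadjusted p = 0.201). A dimmer probe of Stx3 had −0.18 under Cpd-60 in NAc (SE 0.06, unadjusted p = 0.00882, adjusted p = 0.942). The remaining genes reported with the 3 smallest p-values of a comparison were Snap91, Snapc4, Stx18, Sv2b, Sync, Syt11, Rims1, Unc13a, Unc13b and Vamp8, all with adjusted p-values of at least 0.515.

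**Figure D4:**
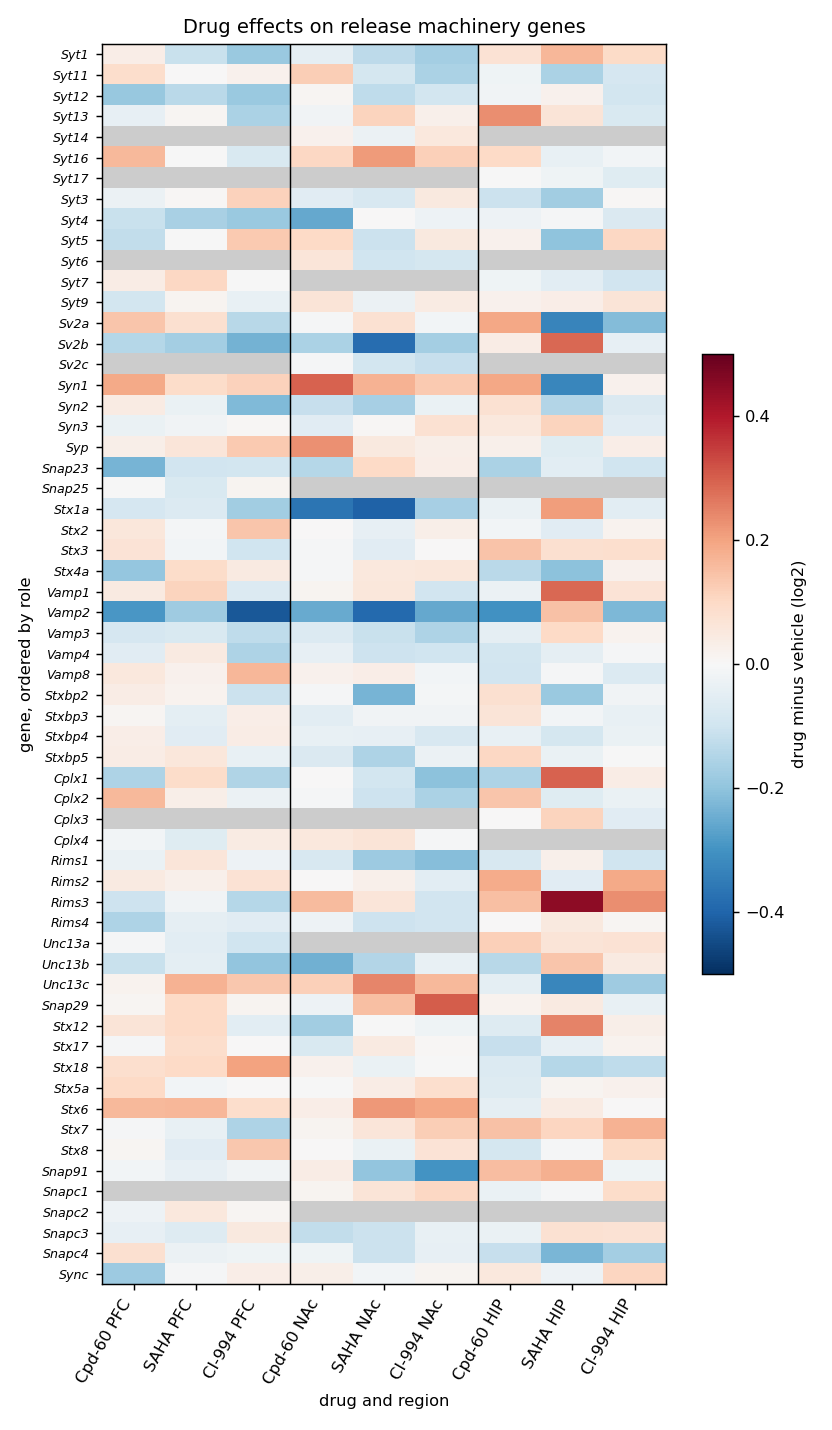
Drug minus vehicle (log2, blue lower and red higher) for genes in rows, ordered by role, and 9 drug and region pairs in columns, with grey where a gene was not tested. No cell passed an adjusted p of 0.05. Vamp2 is blue in 8 of 9 columns, each with a 95% interval that includes 0.

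Among the core genes, the 95% intervals of Syp, Cplx1, Cplx2, Syn1 and the brightest Syt1 probe included 0 in all 9 comparisons. The dimmer Syt1 probe had intervals below 0 in HIP, −0.35 to −0.07 for SAHA and −0.30 to −0.01 for CI-994 (unadjusted p = 0.0339, limma adjusted p = 1). The interval for Syp was −0.18 to 0.23 for Cpd-60 in PFC. Those of Vamp2 were wide, −1.11 to 0.26 for CI-994 in PFC and −1.14 to 0.36 for SAHA in NAc. Snap25 was tested in PFC only, where its single usable probe was near background. Of the further list of 63 genes, none passed in any drug comparison, and 11 of 52 tested had an unadjusted p under 0.05 for SAHA in HIP (9 lower, 2 higher), where the share over all probes, 9.37%, was also the highest of the 9.

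Whether a drug acted differently between regions was tested on the members present in all 3. None of 81 member probes passed an adjusted p of 0.05 for Cpd-60, SAHA or CI-994, nor did any of 19447 probes (0% in each). At an unadjusted p of 0.05 the members numbered 2 for Cpd-60 (2% of all probes), 3 for SAHA (3.83%) and 1 for CI-994 (1.32%). Sv2b under SAHA had effects of −0.17 in PFC, −0.38 in NAc and 0.29 in HIP (F test unadjusted p = 0.021, limma adjusted p = 1), and Stx1a under SAHA had −0.07, −0.40 and 0.21 (unadjusted p = 0.0455, adjusted p = 1).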

How the data were processed

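For each of 36 arrays the authors deposited a raw intensity and a detection p-value per probe (45281 probes), with no background subtraction or normalization. In R 4.3.3 with limma 3.58.1, all arrays were quantile normalized together, floored at 1 and log2 transformed. Probes entered a test when the detection p was at most 0.2 on all 3 arrays of at least 1 group. Regions were compared under vehicle in 1 fit of 12 group means, drugs with vehicle in a fit per region, and differences of drug effects between regions by an F test, with Benjamini-Hochberg adjustment at 0.05. The brightest tested probe stood for a gene. Some members are counted but not reported by name here. Named genes were 20 core release genes, members with region F adjusted p under 0.05 and a range of at least 1, and the 3 smallest p-values of each drug comparison; other called members were named after their values were seen. The members and lists were chosen with earlier results of these data known. Scripts were tested on simulated data. Alternatives were limma's neqc with an offset of 16, 27 arrays without CI-994, a detection p of 0.01, no filter, each pool left out in turn, pool or BeadChip as a block, the methods' test and, chosen after seeing the data, 1 probe per gene.

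The 3 regions of a pool share animals by the labels. Deviations from the group means correlated between such arrays at a median of −0.02 over 36 pairs (−0.48 to 0.59), with 11 over 0.1. The median hides a difference between pairs of regions. Most pairs of PFC with HIP correlated positively, and most pairs of NAc with HIP negatively. The reported fits did not model the sharing of animals.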

Additional observations from a re-analysis of the deposited data

How the results depend on the processing

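The region counts moved within 1.5 times of the reported ones under every alternative run, except HIP against PFC without vehicle pool 1 or 2. Against 43 of 94 member probes in the F test (7499 of 22606 over all probes), neqc gave 45 of 94 (7697 of 22606). A detection p of 0.01 gave 41 of 78 (7374 of 16910), and no filter gave 41 of 136 (6574 of 45281). BeadChip as a random block gave 41 of 94 (6760 of 22606), and 1 probe per gene gave 29 of 57. With the pool of animals as a replicate block the count was 42 of 94 (7416 of 22606 over all probes). With vehicle arrays alone and a replicate block it was 39 of 94 (7046 of 22606). Leaving out 1 pool gave 29 to 45 in the F test, 16 to 31 in HIP against PFC (29 with all pools), 21 to 32 in NAc against PFC and 13 to 22 in HIP against NAc. The lowest counts came without vehicle pool 2 in all 4, and without vehicle pool 1 in the F test as well (HIP against PFC was 17 without vehicle pool 1). In both of these fits 101 member probes were tested, and the F test counts over all probes fell too. They were 4065 of 25139 without vehicle pool 1 and 3751 of 24993 without vehicle pool 2. Without vehicle pool 2, calls over all probes were 2218 in HIP against PFC, 2326 in NAc against PFC and 2003 in HIP against NAc. The alternatives left fewer arrays, and the cause of the drop beyond that was not tested. The count of drug calls at an adjusted p of 0.05 stayed at 0 for the members under every alternative run, the replicate block included (at an unadjusted p under 0.05, 15 instead of 7 for SAHA in HIP). Over all probes it was 0 under the reported fit per region and at most 9 otherwise, without Cpd-60 pool 3 in PFC. Same-numbered pools of different treatments were different mice, but many shared a BeadChip. Within a region, pool 1 of every treatment lay on the first BeadChip and pool 3 on the second. Pool 2 of vehicle and Cpd-60 lay on the first, and pool 2 of SAHA and CI-994 on the second. The contrasts of SAHA and CI-994 with vehicle were therefore not balanced over BeadChips, and the reported fits did not model BeadChip. Of 54 pairs of same-numbered pools of different treatments in a region, 32 had deviations correlated over 0.1. Unadjusted drug counts moved by over 1.5 times in all 9 comparisons without 1 pool, for example to 8 for SAHA in NAc (without vehicle pool 3), 8 for Cpd-60 in NAc (without Cpd-60 pool 3) and 11 for CI-994 in HIP (without CI-994 pool 2). Syn2 in NAc minus PFC was −0.33 (adjusted p = 0.207) without vehicle pool 3. Among the genes named by rule in the region comparison, results that changed sign were small and not called. Other probes gave −0.022 for Vamp1 (HIP minus NAc) and −0.061, −0.066 and −0.081 for Syn3 (HIP minus PFC). Vamp2 ran from −0.044 to 0.242 for HIP minus NAc over the fits without 1 pool, the lowest without vehicle pool 3. Larger changes of sign between probes occurred in other members. For HIP minus PFC, Vamp4 had −0.31 and 0.37, with both probes called. Snap91 had −0.66 on its brightest probe and 0.39, not called, on a dimmer probe. Stxbp5 had −0.13, not called, on its brighter probe and 0.40, called, on the other. Probes near background, Snap25 among them, limit what can be read.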
